A study of Mus musculus with 64 samples.

Results

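The potassium channel genes were taken as every row of the 3 brain tables whose symbol begins with Kcn, followed by lower-case letters and a number. The rule found 82 of 16673 genes, of which 78 encode channel subunits and 4 are noncoding RNAs named after a neighbouring channel gene. Of the 82 genes, 78 were listed for prefrontal cortex, 75 for hippocampus and 79 for hypothalamus, and 74 were listed in all 3 tables. The subunits comprised 15 voltage-gated Kv genes, 9 modifier genes of the Kv group, 4 KCNQ genes, 8 genes of the ether-a-go-go group, 6 calcium- or sodium-activated channels, 13 inward rectifiers, 10 K2P channels and 13 auxiliary subunits. Kcne2 was listed only in hippocampus, Kcnh4 only in prefrontal cortex, and Kcnh6, Kcnh8 and Kcnk5 only in hypothalamus. Kcnn4 was in none of the 3 tables.

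All animals were male BALB/c mice aged 28 weeks. The control mice stayed unstressed, and the others were stressed over 9 weeks by a schedule of changing mild stressors called UCMS, for Unpredictable Chronic Mild Stress, a model of depression. Prefrontal cortex, hippocampus and hypothalamus were each sequenced from 8 control and 8 UCMS animals, with the stressed tissue taken 14 to 16 hours after the last exposure, and animal numbers in the labels link the 3 regions. Total RNA depleted of ribosomal RNA was measured from whole dissected pieces.

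Potassium channels let potassium cross the membrane along its gradient and so set the resting potential, end action potentials and space them in time. Voltage-gated Kv, KCNQ and ether-a-go-go subunits open on depolarization, modifier subunits carry no current alone but change the Kv channels they join, and calcium- and sodium-activated channels respond to earlier firing. Inward rectifiers and K2P channels carry resting and receptor-coupled currents in neurons and potassium uptake in glia, while auxiliary subunits set the gating and traffic of the pore-forming ones.

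Values are normalized levels on a log2 scale, as inferred from the values themselves, and sequencing depth is unknown. Each table had been normalized on its own, so differences of level between regions are descriptions without a test. Levels of different genes are not compared here, because they differed with the number of exon blocks. Channel subunits with up to 3 exon blocks had median levels of 6.12, 5.70 and 5.73 in prefrontal cortex, hippocampus and hypothalamus. Those with more blocks had 4.84, 4.87 and 4.41. Over all genes the medians were 4.96, 5.01 and 5.05 with up to 3 blocks and 4.24, 4.29 and 4.30 with more. The cause of this difference was not tested. In bulk tissue, fewer cells of a type and less RNA per cell cannot be told apart.

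Some libraries stood apart before any comparison. Hemoglobin RNA (Hbb-bs) was above 12 in 9 of the 48 brain libraries. Transthyretin (Ttr), the leading transcript of choroid plexus, was above 10 in 6 libraries: control 2 in prefrontal cortex, and control 5, 6 and 8 and UCMS 2 and 3 in hippocampus. All 8 hypothalamic markers were listed in hypothalamus and 2 of them in each other region, and 7 of 8 hippocampal markers were listed in hippocampus and 5 in each other region. All 7 cortex markers were listed in every region, with summed levels of 8.27 to 9.18 in control prefrontal cortex, 8.15 to 8.69 in hippocampus and 7.57 to 8.62 in hypothalamus, so they did not set the cortex apart in every library.

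In unstressed mice the hypothalamus differed from both other regions in more potassium channel genes than those regions differed from each other. A subunit was counted when its 8 control values in one region all lay beyond the 8 in the other and the means differed by at least 1. Against prefrontal cortex, 5 of 73 shared subunits were higher and 9 lower in hypothalamus, beside 1.54% and 2.19% of 15278 shared genes (3.72% in either direction). Against hippocampus, 7 of 71 were higher and 8 lower in hypothalamus, beside 1.7% and 2.76% of 15266 genes (4.47% in either direction). Between hippocampus and prefrontal cortex 1 of 71 subunits was higher and 1 lower in hippocampus, beside 0.903% and 0.596% of 15279 genes (1.5% in either direction). Over all shared genes the median difference of hypothalamus was 0.13 from prefrontal cortex and 0.092 from hippocampus, and over the subunits it was -0.14 and -0.17. Without control 5, the number higher in hypothalamus than in prefrontal cortex was 3. The number higher in hippocampus than in prefrontal cortex was 2 without control 4, and the number lower there was 2 without control 2. Without the choroid plexus-rich libraries 3 subunits were lower in hippocampus than in prefrontal cortex.

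**Figure D1:**
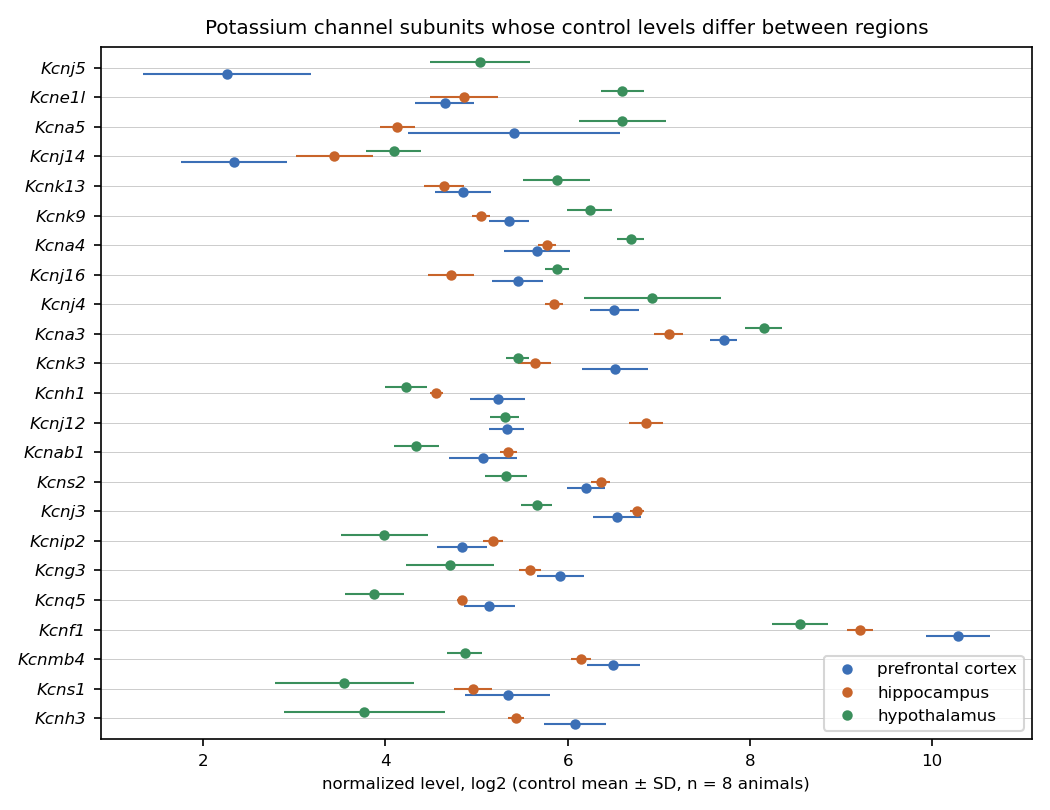
Control levels (log2, mean ± SD, n = 8 animals per region) of channel subunits counted as different between at least 1 pair of regions. Kcnj5, Kcnj14, Kcne1l and Kcna5 have their highest level in hypothalamus, Kcnh3, Kcns1 and Kcnmb4 their lowest level there, and Kcnj12 its highest level in hippocampus.

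Among the voltage-gated Kv genes, Kcna5, Kcna4 and Kcna3 were each counted as higher in hypothalamus than in 1 other region. Of the 6 members of the Kcna subfamily, 5 had a higher control mean in hypothalamus than in hippocampus (median difference 0.87) and 4 a higher one than in prefrontal cortex (median 0.27). Kcna5, a delayed rectifier best known from heart and smooth muscle, had control values of 5.74, 6.50 and 7.25 in hypothalamus (lowest, median, highest) and of 3.80, 4.12 and 4.49 in hippocampus. These groups did not overlap, and the means were 6.60 ± 0.48 (SD, n = 8) and 4.13 ± 0.19 (SD, n = 8). In prefrontal cortex Kcna5 ran from 3.79 to 6.83 in control animals and overlapped both. Kcna4, which gives fast-inactivating A-type current, had control values of 6.42, 6.72 and 6.85 in hypothalamus and of 5.26, 5.59 and 6.17 in prefrontal cortex, again without overlap. Kcna3, a channel of neurons and immune cells, was 1.03 higher in hypothalamus than in hippocampus. When all 48 libraries were normalized together, these differences of Kcna4 and Kcna3 were 0.96 and 0.97, just under the size asked for.

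Kcnc1 and Kcnc2, high-threshold channels of fast-firing neurons, and Kcnd2, the dendritic A-type channel, differed by less than 1 between any pair of regions. Kcnc1 had control means of 6.41, 6.43 and 7.09 and Kcnd2 of 5.83, 6.25 and 5.71 in prefrontal cortex, hippocampus and hypothalamus. Kcna1 and Kcna2, axonal channels that limit excitability, had means of 7.91, 7.72 and 7.19 and of 6.63, 6.36 and 6.45.

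The modifier genes had their lowest mean in hypothalamus, except Kcng4. None of the 9 was counted as higher there, while Kcnf1, Kcng3 and Kcns1 were lower than in prefrontal cortex and Kcns1 and Kcns2 lower than in hippocampus. Kcns1 had control values from 2.15 to 4.20 in hypothalamus, from 4.74 to 5.26 in hippocampus and from 4.54 to 5.92 in prefrontal cortex, so that hypothalamus overlapped neither. Kcnf1 measured 10.28 ± 0.35 (SD, n = 8) in prefrontal cortex, 9.21 ± 0.14 (SD, n = 8) in hippocampus and 8.55 ± 0.31 (SD, n = 8) in hypothalamus. It was the subunit lower in hippocampus than in prefrontal cortex. Kcnv1 differed by -1.71 between hypothalamus and prefrontal cortex, but its control values, 4.32 to 5.91 and 5.60 to 7.29, overlapped.

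All 4 KCNQ genes had lower control means in hypothalamus than in either other region. Their products carry the M-current, which damps repeated firing. Kcnq5 was the member counted, with control values of 3.42, 3.87 and 4.35 in hypothalamus and of 4.56, 5.22 and 5.42 in prefrontal cortex (lowest, median, highest). Its mean difference was -1.26. Kcnq3, a main neuronal member, had means of 5.14, 5.42 and 4.68 in prefrontal cortex, hippocampus and hypothalamus.

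In the ether-a-go-go group Kcnh3, a channel of forebrain neurons, had the widest gap. Its control values were 5.30, 6.22 and 6.34 in prefrontal cortex (lowest, median, highest), 5.30, 5.44 and 5.54 in hippocampus, and 2.33, 3.83 and 4.93 in hypothalamus. The hypothalamic values overlapped neither other region and had an SD of 0.88 over the 8 animals, against 0.087 in hippocampus. Kcnh1, an ether-a-go-go channel of neurons, had control means of 4.23 in hypothalamus and 5.23 in prefrontal cortex. Kcnh7, an erg-type channel, had means of 4.88, 4.34 and 4.17, and Kcnh2, of the same type, of 4.16, 4.08 and 5.06 in prefrontal cortex, hippocampus and hypothalamus.

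None of the 6 calcium- and sodium-activated channel genes was counted between any pair of regions. The gene of the large-conductance BK channel, Kcnma1, measured 5.49, 5.49 and 4.87 in prefrontal cortex, hippocampus and hypothalamus. Kcnn2, a small-conductance channel behind the afterhyperpolarization, had control values of 4.83, 5.01 and 5.14 in hippocampus (lowest, median, highest), and means of 4.37 and 4.40 in prefrontal cortex and hypothalamus. Kcnt1, the sodium-activated channel Slack, was lowest in hippocampus at 3.82 ± 0.15 (SD, n = 8), against 4.58 and 4.30. Kcnmb4, the main neuronal auxiliary subunit of BK, was lower in hypothalamus than in both other regions. Its control values were 4.55 to 5.20 in hypothalamus, 5.99 to 6.30 in hippocampus and 5.91 to 6.84 in prefrontal cortex.

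Inward rectifiers differed in both directions. Kcnj12, a strong rectifier that holds the resting potential, was the subunit higher in hippocampus than in prefrontal cortex. Its control values were 6.45, 6.90 and 7.01 in hippocampus (lowest, median, highest), 4.97, 5.32 and 5.58 in prefrontal cortex and 5.10, 5.29 and 5.55 in hypothalamus, so that hippocampus overlapped neither. Kcnj3, a subunit of the G protein-gated channels that open through inhibitory receptors, was 1.10 lower in hypothalamus than in hippocampus. Its partner in heart and adrenal gland, Kcnj5, measured 5.04 ± 0.55 (SD, n = 8) in hypothalamus and 2.26 ± 0.92 (SD, n = 8) in prefrontal cortex. Kcnj5 was not listed in hippocampus and did not pass the filter on low values in prefrontal cortex. Kcnj14, a further inward rectifier, had control means of 4.09 in hypothalamus, 3.44 in hippocampus and 2.34 in prefrontal cortex, where it too was left out by that filter. Kcnj4 was 1.09 higher in hypothalamus than in hippocampus. Kcnj6 and Kcnj9, the other neuronal G protein-gated subunits, differed by less than 1 between any pair of regions.

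Kcnj10 and Kcnj16, whose products join in astrocytes to clear potassium, had their highest means in hypothalamus. Kcnj10 had control values of 8.34, 8.85 and 9.08 there (lowest, median, highest), 7.72, 7.82 and 7.93 in hippocampus and 7.69, 7.98 and 8.15 in prefrontal cortex. Hypothalamus overlapped neither, but the means differed by less than 1. Kcnj16 measured 5.88 ± 0.13 (SD, n = 8) in hypothalamus and 4.72 ± 0.25 (SD, n = 8) in hippocampus and was counted. The 8 astrocyte markers summed to 10.22 to 10.62 in control hypothalamus, 10.42 to 10.62 in hippocampus and 10.25 to 10.51 in prefrontal cortex, and their part in these levels was not tested.

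Among K2P channels, Kcnk13 was counted as higher in hypothalamus than in both other regions. Kcnk9 was counted as higher there than in hippocampus alone, and Kcnk3 as lower there than in prefrontal cortex alone. Kcnk9 and Kcnk3 encode acid-sensitive background channels and Kcnk13 a background channel of microglia. Kcnk9 had control values of 5.88 to 6.55 in hypothalamus and of 4.93 to 5.19 in hippocampus. Its difference from prefrontal cortex was 0.88. Kcnk13 measured 5.88 ± 0.37 (SD, n = 8) in hypothalamus, 4.64 ± 0.22 (SD, n = 8) in hippocampus and 4.85 ± 0.31 (SD, n = 8) in prefrontal cortex. Its difference from prefrontal cortex was 1.03, and 0.96 when all 48 libraries were normalized together, just under the size asked for. The 8 microglia markers summed to 8.37 to 8.87 in control hypothalamus, 8.63 to 8.88 in hippocampus and 8.59 to 8.93 in prefrontal cortex, and their part in the level of Kcnk13 was not tested. Kcnk3 was 1.07 lower in hypothalamus than in prefrontal cortex, and its difference from hippocampus was -0.19. Kcnk1 and Kcnk2 differed by less than 1 between any pair of regions.

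Of the auxiliary genes, Kcne1l, a single-pass subunit, was highest in hypothalamus. Its control values were 6.12 to 6.88 there, 4.17 to 5.35 in hippocampus and 4.26 to 5.23 in prefrontal cortex. Kcnip2, which binds A-type channels, and Kcnab1, a cytoplasmic beta subunit, were 1.19 and 1.01 lower in hypothalamus than in hippocampus.

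The stress comparison gave no potassium channel gene past the threshold in any region. With limma over all genes and Benjamini-Hochberg adjustment at 0.05, 0 subunits were called of the 69 tested for prefrontal cortex, the 70 for hippocampus and the 71 for hypothalamus, beside 0% of 14127, 14015 and 14539 genes. At an unadjusted p under 0.05 there were 0, 2 and 0 subunits, where 2.18%, 2.95% and 2.12% of all genes were. No subunit had groups without overlap, and nor had any other gene tested (0%). The subunits left out by the filter on low values included Kcne4, Kcnj13, Kcnj14, Kcnj5 and Kcnmb1 in prefrontal cortex, Kcne2 and Kcne4 in hippocampus, and Kcnh6, Kcnh8, Kcnk4 and Kcnmb1 in hypothalamus.

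The intervals limit the size of any change. In prefrontal cortex 55 of 69 subunits had a 95% interval inside -0.5 to 0.5 and 68 inside -1 to 1. In hippocampus these were 65 and 69 of 70, and in hypothalamus 54 and 69 of 71. Estimates ran from -0.26 (Kcnmb2) to 0.23 (Kcnd1) in prefrontal cortex, from -0.46 (Kcnj13) to 0.24 (Kcnj8) in hippocampus and from -0.49 (Kcnh3) to 0.48 (Kcnj13) in hypothalamus.

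**Figure D2:**
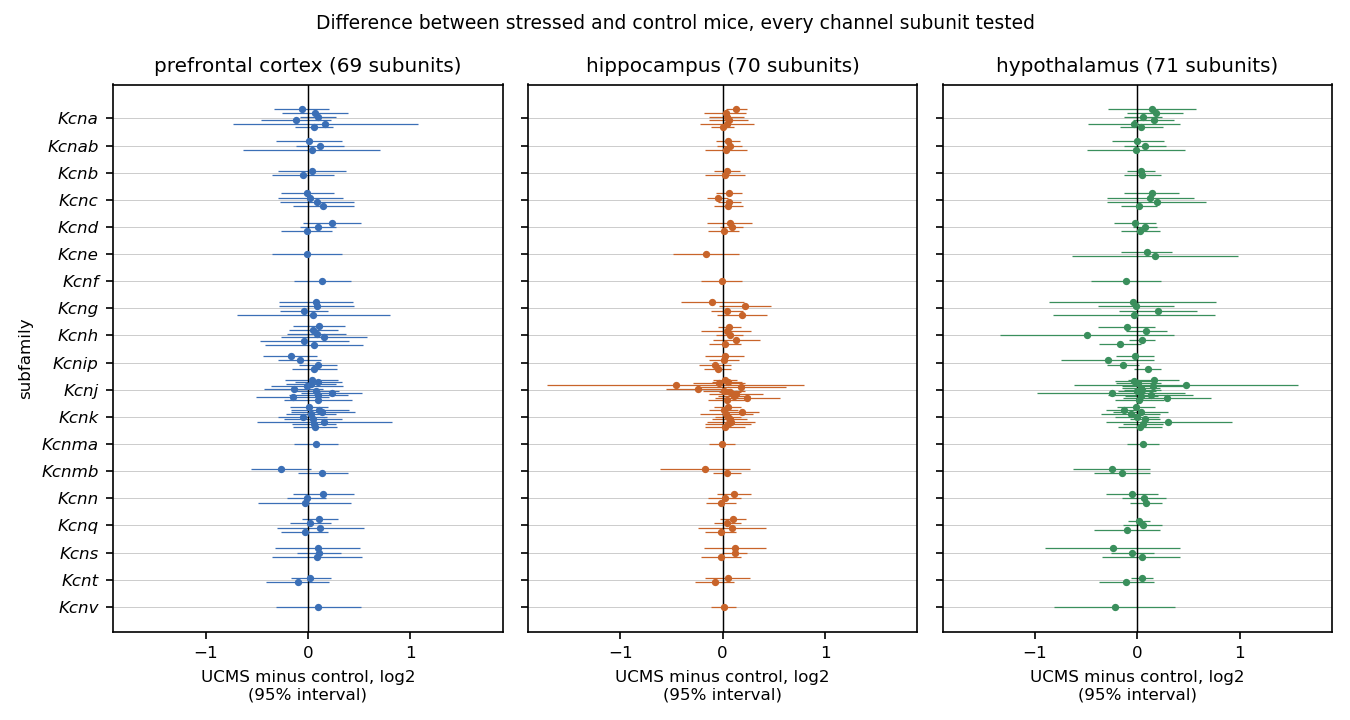
UCMS minus control (log2, points) with its 95% interval (lines) for every channel subunit tested, by subfamily and region, from limma fits with 8 control and 8 UCMS animals. Most points lie close to 0, and the intervals of 55 of 69, 65 of 70 and 54 of 71 subunits lie within 0.5 of it in prefrontal cortex, hippocampus and hypothalamus.

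UCMS means were more often the higher ones. This held for 50 of the 69 subunits of prefrontal cortex, 55 of the 70 of hippocampus and 43 of the 71 of hypothalamus, beside 52%, 50.1% and 50.5% of all genes. The median difference of the subunits was 0.060, 0.045 and 0.032, and that of all genes 0.0056, 0.00038 and 0.00075. The median standard error of a single subunit was 0.135, 0.0777 and 0.113. In prefrontal cortex the count rested on 1 library: without control 2, the one rich in choroid plexus RNA, 34 of 69 subunits were higher and the median was -0.0025. In hippocampus, without UCMS 3, 45 of 70 were higher and the median was 0.03. Without the choroid plexus-rich libraries these were 47 of 70 and 0.0333. In hypothalamus, without UCMS 1, 38 of 71 were higher and the median was 0.0106. Choroid plexus markers had lower UCMS means in 5 of 6 cases in prefrontal cortex (median -0.42) and 7 of 7 in hippocampus (median -0.35), with 0 past the adjusted threshold. In hypothalamus 3 of 7 were higher (median -0.0396). With a score of the choroid plexus markers as a covariate, 30 of 69, 55 of 70 and 45 of 71 subunits were higher. The medians were then -0.0137, 0.0445 and 0.0291 in prefrontal cortex, hippocampus and hypothalamus. Whether choroid plexus RNA caused the subunits' counts was not tested. Of 66 subunits tested in all 3 regions, 20 had a higher UCMS mean in each and 3 a lower one in each, namely Kcnmb2, Kcnq5 and Kcnt2. These are 30.3% and 4.55% of the subunits, beside 18.3% and 17.8% of the 13517 genes tested in all 3 regions. With prefrontal cortex fitted without control 2, 15 subunits (22.7%) were higher in each region and 3 lower.

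Kcna1 and Kcnk12 in hippocampus were the subunits with an unadjusted p under 0.05. Kcna1, a low-threshold axonal channel, had control values of 7.50, 7.75 and 7.84 (lowest, median, highest) and UCMS values of 7.75, 7.83 and 8.01. All 8 UCMS animals lay above the control median, and the groups overlapped. The difference was 0.13 (limma standard error 0.0503, p = 0.0161, adjusted p = 0.99; exact permutation p = 0.00559, two-sided). In prefrontal cortex the difference of Kcna1 was -0.061, with a 95% interval of -0.33 to 0.21.

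Kcnk12 encodes a K2P subunit that carries little current on its own. Its hippocampal values were 5.86, 6.04 and 6.21 in control and 5.86, 6.25 and 6.46 in UCMS animals. The groups overlapped, with 7 of 8 UCMS values above the control median. The difference was 0.19 (limma standard error 0.0742, p = 0.0182, adjusted p = 0.99; exact permutation p = 0.026, two-sided). The next members by p in hippocampus were Kcns2 (0.12) and Kcng2 (0.22), each with adjusted p = 0.99 in limma.

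In prefrontal cortex the smallest p belonged to Kcnmb2, an auxiliary subunit that makes BK channels inactivate. Its values were 3.89, 4.26 and 4.86 in control and 3.62, 4.01 and 4.38 in UCMS animals. The groups overlapped, with 3 of 8 UCMS values above the control median. The difference was -0.26 (limma standard error 0.139, p = 0.074, adjusted p = 0.987; exact permutation p = 0.0957, two-sided). Kcnd1 (0.23), Kcnj4 (0.23) and Kcnip1 (-0.17) followed, each with adjusted p = 0.987 in limma.

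In hypothalamus the smallest p belonged to Kcnip3, whose product binds A-type channels and also DNA. Its values were 4.06, 4.29 and 4.51 in control and 3.92, 4.09 and 4.51 in UCMS animals. The groups overlapped, with 1 of 8 UCMS values above the control median. The difference was -0.14 (limma standard error 0.0764, p = 0.0806, adjusted p = 1; exact permutation p = 0.0886, two-sided). Kcnh7 (-0.17), Kcna4 (0.16), Kcnip4 (0.10) and Kcnk10 (-0.13) followed, each with adjusted p = 1 in limma.

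**Figure D3:**
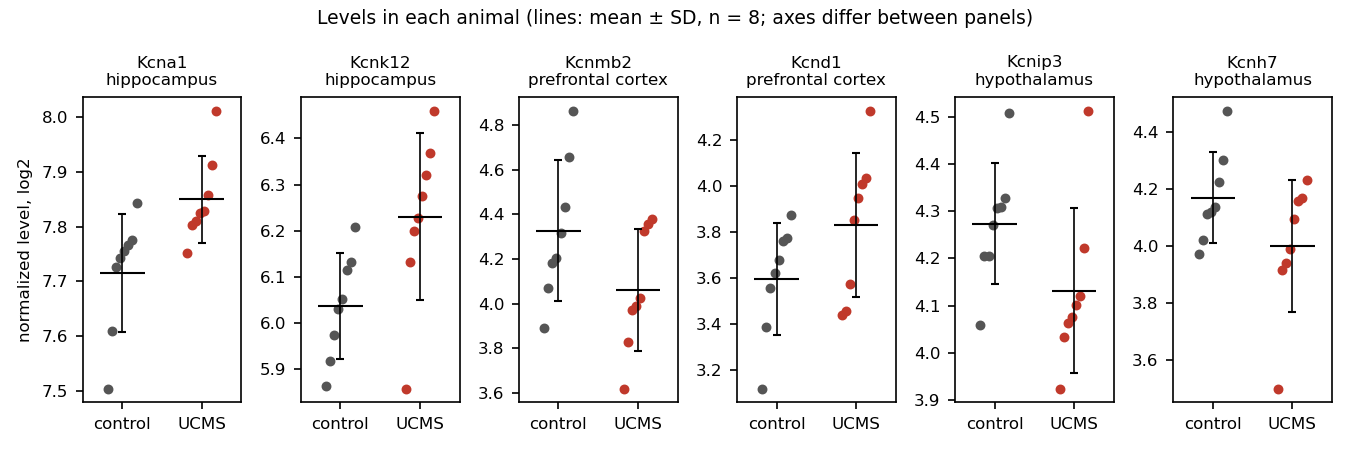
Levels (log2) in each animal for Kcna1 and Kcnk12 in hippocampus, Kcnmb2 and Kcnd1 in prefrontal cortex and Kcnip3 and Kcnh7 in hypothalamus, the members with the smallest p there. Points are animals and lines the mean ± SD of 8; control and UCMS overlap in every panel.

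By family, the UCMS mean was higher for 10, 14 and 13 of 15 Kv genes in prefrontal cortex, hippocampus and hypothalamus, with median differences of 0.056, 0.047 and 0.055. It was higher for 8, 6 and 2 of 9 modifier genes, with medians of 0.093, 0.045 and -0.042. K2P genes were higher in 8, 9 and 5 of 9 cases, and inward rectifiers in 7 of 10, 9 of 12 and 10 of 13. Auxiliary genes were higher in 6 of 10, 6 of 10 and 5 of 11, KCNQ genes in 3 of 4, 3 of 4 and 2 of 3, ether-a-go-go genes in 5 of 6, 5 of 5 and 2 of 5, and calcium- and sodium-activated channels in 3, 3 and 4 of 6. Of all genes, 52%, 50.1% and 50.5% had a higher UCMS mean in the 3 regions. Without control 2, 34 of the 69 prefrontal subunits were higher, against 50 with it, and the families were not counted apart there. No family had a member past the adjusted threshold in limma.

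Members known from glia, vessels and inhibitory signalling gave no call either. The UCMS difference of the astrocyte channel Kcnj10 was 0.0346, 0.0257 and 0.16 in prefrontal cortex, hippocampus and hypothalamus, and that of its partner Kcnj16 was -0.0119, -0.24 and 0.0361. Kcnj8, the pore of the vascular ATP-sensitive channel, differed by -0.15, 0.24 and 0.29. The G protein-gated genes differed little: Kcnj3 by 0.0831, 0.0705 and -0.00275, and Kcnj6 by 0.10, 0.11 and 0.0402. The BK channel gene Kcnma1 differed by 0.0759, -0.00737 and 0.0579, and Kcnn2 by -0.00963, 0.0202 and 0.0638.

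Over the mean of the 3 regions, 0 of 66 subunits passed the adjusted threshold in limma, beside 0% of 13517 genes, and 1 had an unadjusted p under 0.05, where 3.62% of all genes did. That member was Kcnmb2, at 4.57 ± 0.21 (SD, n = 8) in control and 4.34 ± 0.25 (SD, n = 8) in UCMS animals. The difference was -0.23 (limma standard error 0.108, p = 0.0484, adjusted p = 0.959; exact permutation p = 0.0682, two-sided), and 1 of 8 UCMS animals lay above the control median. Its p was under 0.05 in 11 of the 26 settings run. All 15 Kv genes had a higher UCMS mean here, with a median of 0.063, where 51% of all genes did. Kcnc2 was not among them without control 2 or without UCMS 1. In hypothalamus its UCMS 1 value was 7.93, where the other UCMS libraries ran from 6.25 to 7.01. Without UCMS 1, 46 of 66 subunits were higher and the median was 0.0222. Without control 2, 42 of 66 subunits were higher and the median was 0.0245, and the Kv genes were not counted apart there. Without the animals that had a choroid plexus-rich library, 35 of 66 subunits were higher and the median was 0.0096, against 50 and 0.037 with them. With the choroid plexus score as a covariate these were 40 of 66 and 0.0167. Among the next members by p were Kcnd2 (0.086), Kcnip2 (-0.12) and Kcnk12 (0.12), each with adjusted p = 0.959 in limma.

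The stress effect was also compared between regions within animals. None of 68 subunits differed for hippocampus minus prefrontal cortex, of 66 for hypothalamus minus prefrontal cortex, or of 68 for hypothalamus minus hippocampus (limma, adjusted), beside 0% of 13712, 13747 and 13694 genes. At an unadjusted p under 0.05 there were also 0 in each, where 1.61%, 2.43% and 2.26% of all genes were. The stress difference was larger in the region named first for 30, 26 and 30 subunits, beside 49.3%, 49.6% and 50.5% of all genes. The directions against prefrontal cortex moved with single animals. Without control 6, 38 of 68 subunits were larger for hippocampus minus prefrontal cortex (median 0.0206). For hypothalamus minus prefrontal cortex 29 of 66 were larger there (median -0.0237). Without control 2, 49 of 68 subunits were larger for hippocampus minus prefrontal cortex (median 0.0578, against -0.00956 with it) and 40 of 66 for hypothalamus minus prefrontal cortex (median 0.0438, against -0.0274). The smallest p belonged to Kcnj8 for hippocampus minus prefrontal cortex (0.39, 95% interval -0.0515 to 0.84), to Kcnk10 for hypothalamus minus prefrontal cortex (-0.24, -0.53 to 0.0392) and to Kcnj16 for hypothalamus minus hippocampus (0.27, -0.0855 to 0.63). A further fit left out the 6 animals that had a choroid plexus-rich library, namely control 2, 5, 6 and 8 and UCMS 2 and 3. The groups were then smaller and unequal. There, 14 subunits had an unadjusted p under 0.05 for hippocampus minus prefrontal cortex, 11 of them upward, beside 5.68% of all genes. Again 0 passed the adjusted threshold (smallest adjusted p = 0.49 in limma).

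Other channels of excitable cells and channel partners, taken from fixed lists, gave no call in any region (limma, adjusted). Of 10 sodium channel genes tested in prefrontal cortex and 11 in each other region, 4, 8 and 7 had a higher UCMS mean, with medians of -0.0445, 0.0339 and 0.0257. Of 15 calcium channel genes 11, 12 and 10 were higher, with medians of 0.0418, 0.0744 and 0.0349. Of 5 HCN channel genes 4, 3 and 4 were higher, with medians of 0.0335, 0.0425 and 0.0439. Of 13, 13 and 11 channel partners 6, 9 and 7 were higher, with medians of -0.0168, 0.0388 and 0.0195.

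Some members varied widely between animals of the same treatment. The median within-group SD of a subunit in prefrontal cortex, hippocampus and hypothalamus was 0.293, 0.162 and 0.256, beside 0.215, 0.179 and 0.18 for all genes. Kcne2 and Kcnj13 varied most in hippocampus (SD 1.97 and 1.3), Kcna5 in prefrontal cortex (0.932), and Kcnj13 and Kcnh3 in hypothalamus (1.12 and 0.87).

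Kcnj13 and Kcne2 varied with transthyretin. Kcnj13 encodes an inward rectifier of transporting epithelia, and Kcne2 a small auxiliary subunit of choroid plexus and stomach. In the hippocampus Ttr ran from 4.85 to 7.99 in 11 libraries and from 10.12 to 12.77 in 5, which came from 3 control and 2 UCMS animals. Kcnj13 measured 2.02, 2.53 and 3.17 (lowest, median, highest) in the 11 and 4.24, 4.99 and 5.79 in the 5. Kcne2 measured 0.36, 1.70 and 2.19 in the 11 and 4.23, 5.45 and 6.31 in the 5. Neither gene overlapped between these sets of libraries, and the share of all genes without overlap there was not counted. Kcne2 did not pass the filter on low values in hippocampus, where the lowest value of any gene was 0.174. Within the 11, with values centred on treatment, Pearson's r with Ttr was 0.62 for Kcnj13 and 0.67 for Kcne2 (permutation p = 0.0659 and 0.0322, adjusted p = 0.156 and 0.131 over 19 relations). Spearman's rho was 0.50 and 0.64 (permutation p = 0.145 and 0.0475, adjusted p = 0.27 for both), and r without the 2 libraries farthest from the median was 0.41 and 0.60.

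In prefrontal cortex Kcnj13 stood at 5.72 in control 2, whose Ttr was 11.78, and between 2.38 and 3.23 in the other control libraries. The pooled relation rested on that library: r was 0.78 over 16 libraries (permutation p = 0.0123, adjusted p = 0.0777), Spearman's rho was 0.43 (permutation p = 0.0835, adjusted p = 0.27), and r was 0.27 without the 2 libraries farthest from the median. In hypothalamus Ttr stayed between 4.72 and 7.75, and r with Kcnj13 was 0.30 and rho 0.22 (permutation p = 0.282 and 0.43).

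**Figure D4:**
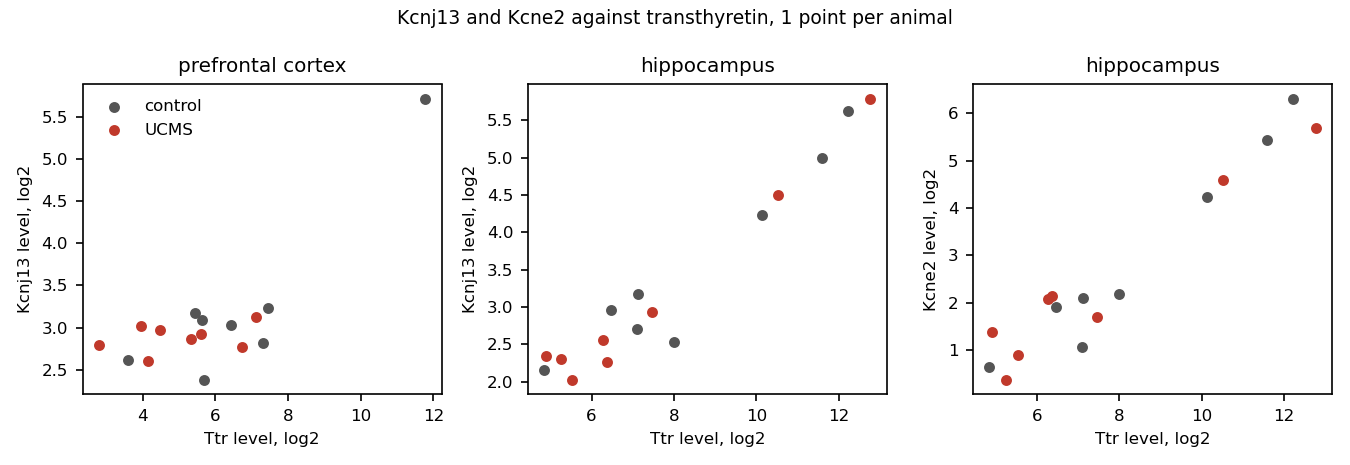
Level of Kcnj13 against Ttr in prefrontal cortex and hippocampus and of Kcne2 against Ttr in hippocampus (both log2, 1 point per animal, control grey and UCMS red). The 5 hippocampal libraries with Ttr above 10 hold the highest values of both genes, and 1 prefrontal control library stands alone at 5.72 for Kcnj13.

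Kcnj13 and Kcne2 both had their highest hippocampal values in the 5 libraries with Ttr above 10. Their relation to each other was not computed. The 250 bases before their start sites are shown, from RefSeq on GRCm38.p6. Capitals mark TGACG or, on the other strand, CGTCA, the core of the cAMP response element. The Kcnj13 stretch is chr1:87394730-87394979 on the minus strand and the Kcne2 stretch chr16:92292139-92292388 on the plus strand, and neither holds an annotated exon. Kcnj13 itself lies opposite Gigyf2.
Kcnj13: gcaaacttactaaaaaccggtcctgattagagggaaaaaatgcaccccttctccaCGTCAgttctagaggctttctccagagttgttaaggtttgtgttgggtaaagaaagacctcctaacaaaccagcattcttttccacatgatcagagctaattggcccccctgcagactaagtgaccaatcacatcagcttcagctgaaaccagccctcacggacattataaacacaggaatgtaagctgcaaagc
Kcne2: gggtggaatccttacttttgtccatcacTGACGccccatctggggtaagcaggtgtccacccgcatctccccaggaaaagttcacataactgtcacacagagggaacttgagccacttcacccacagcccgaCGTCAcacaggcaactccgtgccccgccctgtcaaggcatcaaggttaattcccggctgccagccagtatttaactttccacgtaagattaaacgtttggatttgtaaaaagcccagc
The core occurred 1 time in the Kcnj13 stretch, at position -195 from the start, and 2 times in that of Kcne2, at -222 and -118. It was in 17.8% of 32851 promoter stretches of this length and in 16% of the 81 stretches that matched 57 of the 78 subunits. TAATCC or GGATTA, the motif of OTX type, was in neither stretch and in 6.25% of all promoters. A match describes the letters only.

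Kcnc1 varied with parvalbumin (Pvalb), the calcium buffer of fast-spiking interneurons, whose rapid firing needs this channel. In prefrontal cortex Kcnc1 ran from 5.94 to 6.84 in control and from 6.18 to 6.72 in UCMS libraries, and Pvalb from 3.91 to 6.46 in all. Pearson's r over the 16 libraries was 0.89 (permutation p = 0.00029, adjusted p = 0.00275), Spearman's rho was 0.81 (permutation p = 0.00091, adjusted p = 0.00864), and r was 0.90 without the 2 libraries farthest from the median. In hypothalamus r was 0.83 (permutation p = 5.00e-05, adjusted p = 0.00095), rho was 0.83 (permutation p = 9.00e-05, adjusted p = 0.00171), and r was 0.71 without the 2. In hippocampus, where Pvalb ran from 5.32 to 5.87, r was 0.45 and rho 0.43 (permutation p = 0.0966 and 0.103, adjusted p = 0.184 and 0.27). The prefrontal and hypothalamic relations were the 2 of 19 past the adjusted threshold, which 1 passed over control libraries alone and 0 over UCMS libraries alone. The UCMS difference of Kcnc1 was -0.007, 0.0595 and 0.14 in prefrontal cortex, hippocampus and hypothalamus, with no call in limma.

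**Figure D5:**
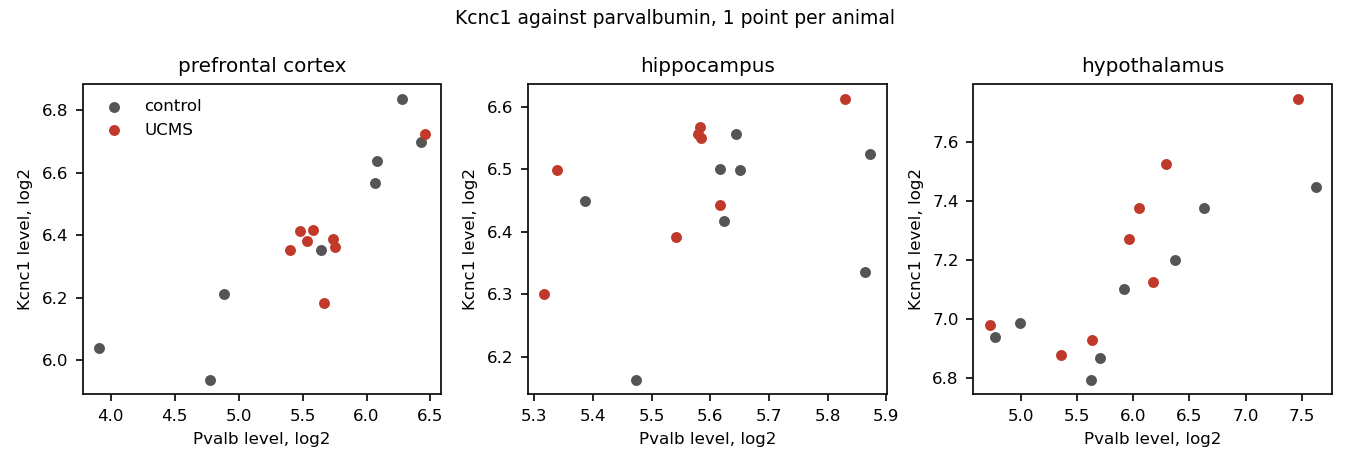
Level of Kcnc1 against Pvalb (both log2, 1 point per animal, control grey and UCMS red) in the 3 regions. Kcnc1 is higher where Pvalb is higher in prefrontal cortex (r = 0.89) and hypothalamus (r = 0.83). Prefrontal Pvalb has an SD of 0.33 in UCMS and 0.89 in control libraries, with UCMS 4 the highest at 6.46.

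The stretch before the Kcnc1 start, chr7:46396218-46396467 on the plus strand, is shown as that of the member with both relations past the threshold. Capitals mark CCGCCC or, on the other strand, GGGCGG, the core of the GC box.
Kcnc1: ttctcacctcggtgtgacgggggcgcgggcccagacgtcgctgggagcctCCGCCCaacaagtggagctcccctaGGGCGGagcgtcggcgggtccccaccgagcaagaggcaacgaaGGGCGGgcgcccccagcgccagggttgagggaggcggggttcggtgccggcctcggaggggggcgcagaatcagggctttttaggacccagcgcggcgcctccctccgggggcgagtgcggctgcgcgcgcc
It holds the core 3 times, at -200, -175 and -132. The core was in 32.7% of all promoter stretches and in 46.9% of the 81 stretches of subunits.

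All relations use values centred on treatment. The other pairs gave no relation past the adjusted threshold, and their smallest adjusted p was 0.131 for r and 0.27 for rho. In prefrontal cortex, hippocampus and hypothalamus, Kcnj10 and Kcnj16 had r of -0.27, -0.53 and 0.17 and rho of 0.11, -0.40 and 0.12 (permutation p of r = 0.391, 0.0644 and 0.547, of rho 0.714, 0.156 and 0.68), and r without the 2 libraries farthest from the median was 0.14, -0.30 and 0.32. Kcnj8 and Abcc9, pore and regulatory subunit of the vascular ATP-sensitive channel, had r of 0.12, 0.34 and 0.49 and rho of 0.0824, 0.32 and 0.43 (permutation p of r = 0.662, 0.201 and 0.0484, of rho 0.771, 0.222 and 0.121), and r without the 2 farthest was 0.31, 0.22 and 0.59. Kcnd2 and its partner Dpp10 had r of -0.10, -0.22 and 0.56 and rho of 0.16, -0.00882 and 0.49 (permutation p of r = 0.74, 0.474 and 0.0345, of rho 0.547, 0.98 and 0.0665), and r without the 2 farthest was 0.58, -0.27 and 0.32.

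Further members followed markers of cell types or neighbouring tissue, in relations chosen after their values were seen and given without a test. In prefrontal cortex Kcna5 was higher where Drd1, a dopamine receptor abundant in striatal neurons, was higher (r = 0.75, rho = 0.79, 16 libraries), and Drd1 ran from 6.34 to 9.78. In hippocampus the same pair had r = 0.31 and rho = 0.0588, and in hypothalamus r = 0.0141 and rho = -0.0529. Kcng4, a modifier of the Kv group, followed Pvalb in prefrontal cortex (r = 0.89) and hypothalamus (r = 0.88), while r was 0.12 in hippocampus. Kcnh3 followed Slc17a7, the vesicular glutamate transporter of cortical neurons, in prefrontal cortex (r = 0.95, and 0.77 without the 2 farthest libraries) and hypothalamus (r = 0.83), and in hippocampus r was 0.66 and 0.40 without the 2 farthest. Kcnj4, a strong inward rectifier of forebrain neurons, followed it in hypothalamus (r = 0.80), where Slc17a7 ran from 3.09 to 7.48. For Kcnj4 in prefrontal cortex r was 0.68, and in hippocampus it was 0.46 with rho at -0.0235 and turned to -0.45 without the 2 farthest libraries. The part of Drd1, Pvalb and Slc17a7 cells in these levels was not tested.

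Kcna5 is shown because its level separated hypothalamus from hippocampus most among the Kv genes and because its promoter stretch holds ACANNNTGT, the palindrome of glucocorticoid receptor type, close to the start. The stretch is chr6:126535556-126535805 on the minus strand, with the palindrome in capitals.
Kcna5: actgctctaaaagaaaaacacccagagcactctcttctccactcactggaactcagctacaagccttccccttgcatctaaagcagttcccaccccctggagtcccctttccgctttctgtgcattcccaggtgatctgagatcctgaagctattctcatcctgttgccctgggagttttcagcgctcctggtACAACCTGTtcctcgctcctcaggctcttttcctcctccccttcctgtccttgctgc
The match is at -57. The palindrome, the same on both strands, was in 5.84% of all promoter stretches and in 4 of the 81 of subunits, those of Kcna5, Kcnf1, Kcnip4 and Kcns3. The UCMS difference of Kcna5 was 0.17, 0.0469 and -0.03 in prefrontal cortex, hippocampus and hypothalamus (limma, adjusted p = 0.987, 0.991 and 1).

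The noncoding members were counted apart. Kcnq1ot1, the imprinted antisense RNA of the Kcnq1 locus, measured 10.26, 9.99 and 9.98 in control prefrontal cortex, hippocampus and hypothalamus, and its UCMS difference was -0.10, 0.0446 and 0.20 (limma, no call). Kcnmb4os1 lies opposite Kcnmb4, and its control means, 6.61, 6.18 and 4.93, ran beside those of Kcnmb4, 6.50, 6.15 and 4.87. Across the 16 libraries of each region their r was 0.88, 0.42 and 0.73, given as a description. Kcnd3os and Kcnd3 had r of 0.79, 0.58 and 0.43. The libraries were directional, but whether counting used strand is not given in the sources used here. Without it an antisense RNA and its partner cannot be told apart, which holds also for Kcnmb1 with Kcnip1, Kcnh3 with Mcrs1, Kcnh7 with Gca, Kcnh1 with Hhat and Kcnab2 with Nphp4.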

How the data were processed

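Bulk RNA-seq of 48 brain libraries (16 male mice, 3 regions) was used, and blood was not analysed here. The authors deposited 1 table per region with log2 levels per gene. That the scale is log2 and that libraries were quantile normalized within a table is read from the values: 89%, 89.4% and 88.7% of ranks held equal values within 0.002 in prefrontal cortex, hippocampus and hypothalamus. Per the submitters' processing notes the build was GRCm38.p4; no aligner or counter is named in the labels used. Every value column matched a sample (0 without one). Depth is unknown, and the number of animals sets the precision.

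From these values, the lowest 10% of genes by mean were left out and limma 3.58.1 (R 4.3.3; lmFit and eBayes with a trended prior) compared UCMS with control within each region, over the mean of the regions and on within-animal differences between regions, with two-sided p-values adjusted over all genes tested at 0.05. The exact permutation tests ran over all 12870 splits and the relations between genes over 100000 resamples (Python 3.11.15, scipy 1.17.1). Libraries of a group come from separate animals, by their numbers in the labels. The fits were tested on simulated data.

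Members named are any past the adjusted threshold, otherwise the 5 with the smallest p in each comparison; the highest of each subfamily; the 5 widest gaps each way between regions; and a fixed set of known channels. Other members named (such as Kcnq5, Kcnh1, Kcns3 and Kcnd3) and the 4 added pairs were chosen after their values were seen. Some members enter the counts but are not reported here by name. Members and lists were chosen with earlier results of these data known. Median UCMS differences of the marker lists in prefrontal cortex, hippocampus and hypothalamus were -0.0559, -0.0075 and 0.00462 for astrocytes, -0.0424, 0.0439 and -0.0471 for oligodendrocytes, 0.0358, 0.13 and -0.0283 for microglia, -0.42, -0.35 and -0.0396 for choroid plexus, 0.0164, -0.0315 and 0.0745 for pericytes and endothelium, -0.17, -0.25 and 0.38 for meninges and fibroblasts, 0.18, -0.66 and 0.27 for red cells, -0.0706, -0.062 and 0.004 for fast-spiking interneurons, 0.15, -0.0514 and -0.12 for cortex and -0.00075, 0.13 and 0.00175 for hippocampus. Hypothalamic markers were tested in hypothalamus alone (0.0739). No marker passed the adjusted threshold. Alternatives varied the filter, prior, pseudocount, covariates, libraries and replicate block; promoter stretches are RefSeq's.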

Additional observations from a re-analysis of the deposited data

Results flagged for a closer look

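In groups of 8 libraries, a level was singled out when its gap to the nearest other library exceeded Dixon's 95% critical value for the range of the group. Of the channel subunits 75 were tested, in each region that measured them. A library stood apart in 47 of 426 groups (11%), where chance gives about 1 in 20 and the same measure gave 11.7% over all genes of the tables. The 47 came from 17 libraries. In hippocampus, UCMS 3 stood apart for Kcnd3 (5.29, highest), Kcnh2 (4.89, highest), Kcnh3 (5.86, highest), Kcnj2 (4.73, lowest), Kcnmb2 (3.03, lowest), Kcnmb4 (6.53, highest), Kcnn2 (4.61, lowest) and Kcnq3 (5.13, lowest). In prefrontal cortex, control 2 stood apart for Kcnc4 (4.65, lowest), Kcng2 (6.11, highest), Kcnh1 (4.56, lowest), Kcnh3 (5.30, lowest), Kcnip4 (3.98, lowest), Kcnj13 (5.72, highest), Kcnj9 (4.85, lowest) and Kcnma1 (4.90, lowest). In hypothalamus, UCMS 1 stood apart for Kcna4 (7.41, highest), Kcnc2 (7.93, highest), Kcne4 (5.35, highest), Kcnk1 (6.17, highest), Kcnma1 (5.25, highest) and Kcnmb2 (5.54, highest). In hippocampus, control 3 stood apart for Kcnab2 (7.12, highest), Kcnf1 (8.90, lowest), Kcnj12 (6.45, lowest) and Kcnk13 (4.17, lowest). In hypothalamus, control 5 stood apart for Kcnc2 (7.31, highest), Kcnc4 (5.46, lowest), Kcng3 (3.69, lowest) and Kcnk2 (4.12, lowest). In prefrontal cortex, UCMS 6 stood apart for Kcnh1 (4.83, lowest), Kcnk4 (2.85, lowest) and Kcnv1 (6.25, lowest). In hippocampus, control 7 stood apart for Kcna3 (7.48, highest) and Kcnd2 (6.09, lowest). In hippocampus, UCMS 4 stood apart for Kcnj12 (6.10, lowest) and Kcnk3 (5.38, lowest). In prefrontal cortex, UCMS 4 stood apart for Kcnab3 (5.28, highest) and Kcnc1 (6.72, highest). Kcnk6 stood apart in UCMS 5 of hippocampus as the highest value, at 5.10, where the other libraries ran from 4.31 to 4.67. Kcng3 stood apart in UCMS 6 of hippocampus as the lowest value, at 5.21, where the other libraries ran from 5.62 to 5.82. Kcne4 stood apart in UCMS 7 of hippocampus as the lowest value, at 2.42, where the other libraries ran from 3.02 to 3.53. Kcnn3 stood apart in control 1 of hypothalamus as the lowest value, at 4.04, where the other libraries ran from 4.34 to 4.56. Kcnk1 stood apart in control 3 of hypothalamus as the lowest value, at 5.42, where the other libraries ran from 5.71 to 5.94. Kcnh7 stood apart in UCMS 2 of hypothalamus as the lowest value, at 3.50, where the other libraries ran from 3.92 to 4.23. Kcnmb1 stood apart in UCMS 7 of hypothalamus as the lowest value, at 1.34, where the other libraries ran from 2.71 to 3.72. Kcna1 stood apart in control 7 of prefrontal cortex as the highest value, at 8.28, where the other libraries ran from 7.70 to 7.96. Control 2 of prefrontal cortex is the library with Ttr at 11.78, and UCMS 3 of hippocampus is among the 5 with Ttr above 10; the part of attached tissue in these values was not tested.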

How the results depend on the processing

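No potassium channel subunit passed the adjusted threshold in limma under any alternative run for the 7 stress comparisons. None was called in the main fits either, so no stress call could reverse. Leaving out each animal, the median difference of the subunits ran from -0.0025 to 0.0845 in prefrontal cortex. It ran from -0.0494 to 0.0578 for hippocampus minus prefrontal cortex and from -0.0587 to 0.0438 for hypothalamus minus prefrontal cortex. In the other comparisons it kept its sign. Counts of control levels that differ between regions moved with the size asked for. With a difference of at least 0.5, 2 subunits were higher and 5 lower in hippocampus than in prefrontal cortex, 8 were higher and 12 lower in hypothalamus than in prefrontal cortex, and 13 were higher and 20 lower in hypothalamus than in hippocampus; of all genes these were 2.32%, 1.51%, 7.3%, 4.44%, 6.31% and 6.34%. With at least 2 the counts were 0, 0, 1, 1, 1 and 0, beside 0.124%, 0.0916%, 0.288%, 0.465%, 0.275% and 0.472%. For hypothalamus above prefrontal cortex, 2 were counted after normalizing all libraries together (Kcnj5 is not in that shared set) and 3 after centring on shared genes. Without choroid plexus-rich libraries 3 were lower in hippocampus than in prefrontal cortex. Leaving out each control animal gave 1 to 2 and 1 to 2 (hippocampus above and below prefrontal cortex), 3 to 5 and 8 to 10 (hypothalamus against prefrontal cortex), and 6 to 8 and 6 to 10 (against hippocampus). Of the relations, 1 passed over control libraries alone and 0 over UCMS libraries alone. Leaving out each library, subunits with an unadjusted p under 0.05 numbered 0 to 2 in prefrontal cortex, 2 to 6 in hippocampus (6 without UCMS 6, beside 4.91% of all genes), 0 to 2 in hypothalamus and 0 to 2 over the mean of the regions; without the hemoglobin-rich libraries they numbered 4 over the mean, beside 6.85% of all genes. With the replicate block 0 subunits passed the adjusted threshold and 0, 2, 1 and 2 had an unadjusted p under 0.05 in the same order. Same-numbered control and UCMS libraries correlated from -0.453 to 0.551. The correlation was above 0.1 in 6, 3 and 3 of 8 pairs in prefrontal cortex, hippocampus and hypothalamus. The UCMS library of the same number was the best match of 2, 0 and 0 of the 8 control libraries. Libraries were matched by these numbers and not by the animal codes in the titles, which differ for some UCMS animals. Whether control and UCMS animals were paired is therefore not settled. Depth is unknown, and separate normalization of the tables limits comparisons of level between regions.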
